A study of Saccharomyces cerevisiae with 3 samples.

Results

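The 38 genes described here encode the factors that start, extend and end translation in the cytosol of *Saccharomyces cerevisiae*. They were taken as a named list and matched to open reading frames on DNA arrays that measured 6218 genes, and all 38 were found. Of these, 26 act in initiation, 10 in elongation and 2 in termination. The arrays followed 1 culture of diploid SK1 cells in which *SUM1*, the repressor of mid-sporulation genes, was deleted (strain JPY214, written Δ*sum1*). One array was hybridized with RNA of cells after 6 hours in the sporulation medium SPM, which holds acetate and raffinose. The other 2 held RNA of cells moved at that time to the glucose-rich medium YPD and collected 20 or 40 minutes later. Every array had the same reference in its second color, which was RNA of the wild-type diploid SK1 strain NKY1551 growing in YPA, an acetate-based rich medium, so that the reference differed from the samples in genotype as well as in medium.

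Translation of most mRNAs begins when the cap-binding complex eIF4F recruits a small ribosomal subunit that carries eIF1, eIF1A, eIF3, eIF5 and the initiator tRNA, the last brought by eIF2 bound to GTP. The subunit scans to the start codon, eIF2 leaves with GDP, and the exchange factor eIF2B reloads eIF2 for another round. eEF1A then delivers aminoacyl-tRNAs, eEF2 moves the ribosome along the message with eEF3, which is an additional factor of fungi, and eRF1 and eRF3 release the finished protein at a stop codon. In yeast, many of these genes are known to be transcribed most strongly in fast growth on glucose, together with those for ribosomal proteins.

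Each value below is a log2 ratio of Δ*sum1* to reference, centered on the median of its array, and each change is the ratio in YPD minus the ratio at 6 hours in SPM. With 1 array at each time, no test was possible. The error given is the SD of a gene's duplicate spots, which covers the printing and scanning of 1 slide only; pooled over all genes of an array, it was 0.15 to 0.19. Both changes subtract the same 6-hour array and so share its error. There was no culture kept in SPM for another 20 or 40 minutes, so that the change of medium, the time elapsed and the slide cannot be told apart. A lower level in bulk RNA can reflect fewer cells with the mRNA or less of it in each cell, and these cannot be told apart either. *SUM1* itself had log2 ratios of -1.76, -1.38 and -1.64 in the order of the arrays, below the reference throughout but with signal left on its probe. Of 12 sporulation markers, 11 exceeded the reference by 1.5-fold or more in SPM and 9 did so at 40 minutes. Of 13 haploid and mating markers, 9 exceeded it by this limit in SPM and 10 at 40 minutes. The corresponding shares of all genes were 31.0% and 34.7%, and the part of other cells in the results was not tested. No spot of a member lay under the signal floor recovered from the authors' deposited log2 ratios, in either color on any array. The study describes its floor as the mean signal of control spots printed with buffer. That mean was higher, at 1650, 1304 and 1236 in Cy5. Some member spots lay under it, among them those of *GCN3* in YPD, with mean Cy5 signals of 708 and 644. Some marker ratios rested on reference spots under the recovered floor, among them those of *SPR3* on each array and of *MFA1* and *MFA2* at 40 minutes.

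Transcripts of most translation factors were more abundant after the move to YPD. At 20 minutes, 31 of 38 (81.6%) were at least 1.5-fold higher than in SPM, the limit of change used here, against 26.2% of all genes. *GCN3* was the member that was lower by this limit (2.63%), against 38.9% of all genes. At 40 minutes, 35 of 38 (92.1%) were higher, against 26.9% of all genes, and *GCN3* was again the lower member, against 42.1% of all genes. The median change of the members was 1.56 (2.96-fold) at 20 minutes and 1.61 (3.06-fold) at 40 minutes, where the median of all genes was -0.25 and -0.32. The members were spread widely, from -1.07 to 3.50 at 20 minutes and from -1.03 to 3.90 at 40 minutes. In both spots taken singly, 29 members passed the limit at 20 minutes and 35 at 40 minutes. With an intensity-dependent (loess) normalization, 27 and 26 members were higher and the median change was 0.96 and 0.93. With the mean of the buffer spots as the signal floor, as the study describes it, 25 and 21 were higher and the median was 0.99 and 0.94. Loess ended the calls of *HCR1*, *SUI1* and *TIF2* at both times, of *SUI2* at 20 minutes and of *ANB1*, *EFB1*, *HYP2*, *PAB1*, *TEF1* and *TEF2* at 40 minutes. The buffer-spot floor ended the same calls except that of *EFB1*, and in addition those of *TIF1* and *TIF4632* at both times and of *GCD6*, *GCD11*, *SUP35* and *TIF34* at 40 minutes. Members with all spots above this floor moved by a common amount at each time, through the array median alone.

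At 6 hours in SPM, the factors lay on both sides of the growing reference. The median log2 ratio was -0.43, 17 members (44.7%) were at least 1.5-fold below the reference, against 28.6% of all genes, and 5 (13.2%) were above it by the same limit, against 31.0%. Those 5 were *TIF3*, *TIF11*, *SUI1*, *HCR1* and *SUI2*, all of them genes of initiation. At 40 minutes in YPD, the median was 1.06, 34 members (89.5%) were at least 1.5-fold above the reference, against 34.7% of all genes, and 1 (2.63%) was below it by this limit, against 35.9%. Without a limit, 25 members had a ratio below 0 in SPM and 35 had one above 0 at 40 minutes, and 24 of them belonged to both sets. *SUP45* had a ratio below 0 on each array.

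**Figure D1:**
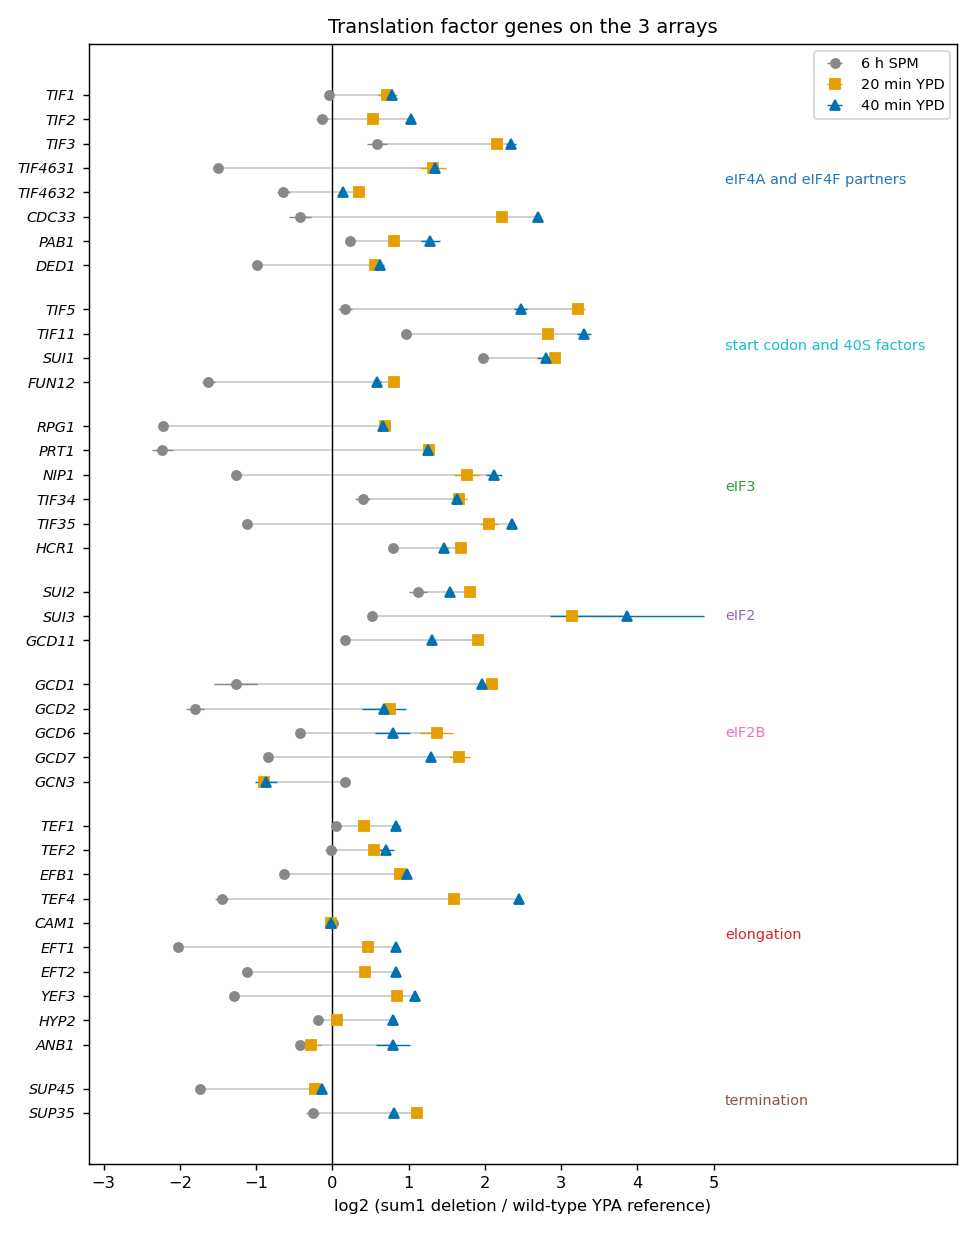
The log2 ratio of Δ*sum1* to the wild-type YPA reference (horizontal axis) for each of the 38 genes, grouped by role, at 6 hours in SPM (circles) and after 20 (squares) and 40 minutes (triangles) in YPD; bars are the SD of 2 spots. The SPM circles lie around a median of -0.43 and the 40-minute triangles around 1.06, and *GCN3* is the gene whose YPD points lie clearly to the left of its SPM point.

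The genes of eIF4F and its helpers differed in how far they moved. *CDC33*, which encodes the cap-binding subunit eIF4E, had log2 ratios of -0.43 at 6 hours, 2.22 at 20 minutes and 2.69 at 40 minutes. It was 6.28-fold higher at 20 minutes and 8.70-fold at 40 minutes, with spot SDs of the change of 0.12 and 0.10. *TIF4631*, encoding the scaffold eIF4G1, went from -1.50 to 1.32 and 1.35, which is 7.07-fold and 7.20-fold. These were the members of the group with the largest changes. *TIF4632*, for the second scaffold eIF4G2, had -0.64, 0.35 and 0.13 and was 1.99-fold and 1.71-fold higher. *DED1*, a DEAD-box helicase of scanning, had -0.99, 0.56 and 0.62 and was 2.93-fold and 3.05-fold higher. *TIF3*, for eIF4B, which stimulates the helicase eIF4A, had 0.59, 2.15 and 2.34 and was 2.96-fold and 3.37-fold higher. The genes for eIF4A and the poly(A)-binding protein had the smallest changes of the group at 20 minutes, and *TIF4632* had the smallest at 40 minutes. *TIF1* had -0.04, 0.72 and 0.78 and *TIF2* had -0.14, 0.53 and 1.03, both encoding the same eIF4A protein. *PAB1* had 0.23, 0.81 and 1.29, and its change of 0.58 at 20 minutes (1.49-fold) was just under the limit, whereas that at 40 minutes was 1.05. *TIF2* changed by 0.67 and 1.16, but by -0.05 and -0.04 after loess normalization, and *PAB1* at 40 minutes by -0.05 after loess. The sign of these changes, which were past the limit without loess, thus depended on the normalization.

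Among the factors that bind the small subunit and select the start codon, all 4 were higher at both times, *SUI1* not with loess or the buffer-spot floor. *TIF5* encodes eIF5, which makes eIF2 hydrolyze its GTP. Its log2 ratio was 0.16 in SPM, 3.22 at 20 minutes and 2.47 at 40 minutes, so that it was 8.35-fold higher at 20 minutes and 4.95-fold at 40 minutes. *FUN12*, for eIF5B, the GTPase of subunit joining, went from -1.63 to 0.80 and 0.59 (5.38-fold and 4.64-fold). *TIF11*, for eIF1A, had 0.97, 2.83 and 3.30 and was 3.64-fold and 5.05-fold higher. *SUI1*, for the start-codon fidelity factor eIF1, was the gene of the group already far above the reference in SPM. It had 1.98 there, 2.93 at 20 minutes and 2.80 at 40 minutes, which is a change of 0.95 and 0.83.

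The eIF3 genes, for the large scaffold that holds the other factors on the small subunit, included the members with the largest changes of initiation. All 6 passed the limit at both times, *HCR1* not with loess or the buffer-spot floor, and their median change was 2.97 and 3.13. *PRT1* (eIF3b) had log2 ratios of -2.23 at 6 hours, 1.27 at 20 minutes and 1.25 at 40 minutes, which is 11.3-fold and 11.2-fold. *TIF35* (eIF3g) had -1.13, 2.06 and 2.36, or 9.07-fold and 11.2-fold. *NIP1* (eIF3c) had -1.26, 1.76 and 2.12, or 8.13-fold and 10.4-fold. *RPG1* (eIF3a) was likewise far below the reference in SPM, at -2.22, and reached 0.69 and 0.66 (7.54-fold and 7.40-fold). The remaining subunits stood above the reference before the transfer and moved less. *TIF34* (eIF3i) had 0.40, 1.67 and 1.64, or 2.41-fold and 2.36-fold. *HCR1*, for the loosely bound subunit eIF3j, had 0.79, 1.69 and 1.47, or 1.86-fold and 1.60-fold.

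The 3 subunits of eIF2, which carries the initiator tRNA, did not change by the same amount. *SUI3* (beta) had log2 ratios of 0.52, 3.14 and 3.87, *GCD11* (gamma, the GTPase) had 0.16, 1.91 and 1.3, and *SUI2* (alpha, the subunit that the kinase Gcn2 phosphorylates) had 1.12, 1.81 and 1.54. At 20 minutes, they were 6.18-fold, 3.35-fold and 1.61-fold higher in that order, and at 40 minutes 10.2-fold, 2.20-fold and 1.33-fold, the last within the limit. The 40-minute value of *SUI3* rests on spots that differed by far more than those of any other member, at 4.58 and 3.15, with an SD of 1.01. The reference background around the first of these was 4728 intensity units, and that around the second was 164. For every other member, the spot SD was at most 0.29 on each array.

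In eIF2B, the subunits went in opposite directions. *GCD6* (epsilon, the catalytic subunit) had -0.43, 1.37 and 0.79 and was 3.47-fold and 2.33-fold higher. Its partner *GCD1* (gamma) had -1.27, 2.10 and 1.97 and was 10.3-fold and 9.42-fold higher. In the regulatory part of the complex, which senses phosphorylated eIF2, *GCD7* (beta) had -0.84, 1.66 and 1.29, and *GCD2* (delta) had -1.80, 0.76 and 0.67. Both were higher by at least 4.39-fold, with changes of 2.51 and 2.13 for *GCD7* and of 2.56 and 2.48 for *GCD2*. *GCN3*, the remaining regulatory subunit (alpha) and in yeast the one that is dispensable for growth, had 0.17 in SPM, -0.90 at 20 minutes and -0.87 at 40 minutes. Its change was -1.07 ± 0.03 (SD of 2 spots), or 2.10-fold lower, at 20 minutes and -1.03 ± 0.18, or 2.05-fold lower, at 40 minutes. The Cy5 intensity of its spots was 2428 and 2214 in SPM and 685 and 613 at 40 minutes. These intensities are not scaled between arrays, and the median Cy5 signal of all gene spots was 4280 in SPM and 1616 at 40 minutes. In the sample channel alone, without the reference, its change was -1.05 at 20 minutes and -0.43 at 40 minutes, the latter within the limit.

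Of the 10 elongation genes, 5 were at least 1.5-fold higher at 20 minutes (beside 26.2% of all genes) and 9 at 40 minutes (beside 26.9%), and the median of their changes was 1.05 and then 1.42. With loess normalization, 5 and 4 of them were higher. *TEF4* encodes eEF1B gamma, a subunit of the exchange complex of eEF1A, and had log2 ratios of -1.45 in SPM, 1.59 at 20 minutes and 2.44 at 40 minutes. It was 8.25-fold higher and then 14.9-fold higher, the largest change of any member at 40 minutes. *EFB1*, for the catalytic subunit eEF1B alpha, had -0.64, 0.89 and 0.98 and was 2.88-fold and 3.06-fold higher. The translocation factor eEF2 is encoded by *EFT1*, with -2.03, 0.47 and 0.84, and *EFT2*, with -1.13, 0.43 and 0.84, so that both stood below the reference in SPM and above it in YPD. *YEF3*, for eEF3, had -1.29, 0.85 and 1.09 and was 4.39-fold and 5.18-fold higher. The eEF1A genes *TEF1*, at 0.05, 0.41 and 0.84, and *TEF2*, at -0.02, 0.55 and 0.71, were close to the reference in SPM. Their changes were 0.37 and 0.56 at 20 minutes, both within the limit, and 0.79 and 0.73 at 40 minutes, but -0.56 and -0.59 at 40 minutes after loess normalization. One 40-minute spot of *TEF2* was saturated, at 65058 intensity units over a background of 22223.

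Termination was represented by *SUP45*, for eRF1, which reads stop codons, and *SUP35*, for the release GTPase eRF3. *SUP45* had -1.73, -0.23 and -0.14 and was 2.82-fold and 3.02-fold higher in YPD, coming near the reference without passing it. *SUP35* had -0.26, 1.11 and 0.80 and was 2.58-fold and 2.09-fold higher.

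Yeast keeps duplicate genes for many of these factors, and the copies did not always move together. *TIF1* and *TIF2*, *TEF1* and *TEF2*, and *EFT1* and *EFT2* encode identical proteins from nearly identical coding sequences, so that probes made from whole genes may read both copies. Their changes differed by 0.09 and -0.34, by -0.20 and 0.07, and by 0.94 and 0.90 (first minus second, 20 and 40 minutes). The *EFT1* and *EFT2* probes gave nearly the same ratios in YPD, and most of their difference lay in the SPM array. *TIF4631* changed by 1.83 and 2.07 more than *TIF4632*. *CAM1*, the second eEF1B gamma gene, had log2 ratios of 0.01, -0.02 and -0.02, so that *TEF4* changed by 3.08 and 3.92 more. *CAM1* changed by -0.03 and -0.02 here, by -0.69 and -0.93 after loess normalization and by 0.14 and 0.48 in the sample channel alone.

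The eIF5A genes *HYP2*, known as the copy of aerobic growth, and *ANB1*, known as the copy of low oxygen, gave similar series of values. *HYP2* had -0.19, 0.05 and 0.80, and *ANB1* had -0.42, -0.28 and 0.80. Neither passed the limit at 20 minutes, and both did at 40 minutes, with changes of 0.99 and 1.22, although that of *HYP2* was -0.10 after loess normalization. These coding sequences are also close to one another, so that shared signal cannot be told apart from a shared change. Outside the 38 genes, the helicase *DBP1*, the paralog of *DED1*, went the other way, with 1.38 in SPM, -1.07 at 20 minutes and -1.42 at 40 minutes. *DED1* therefore changed by 4.00 and 4.41 more than *DBP1*. *HEF3*, the paralog of *YEF3*, was above the reference throughout, at 1.55, 1.72 and 1.34, and changed by 0.17 and -0.21.

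**Figure D2:**
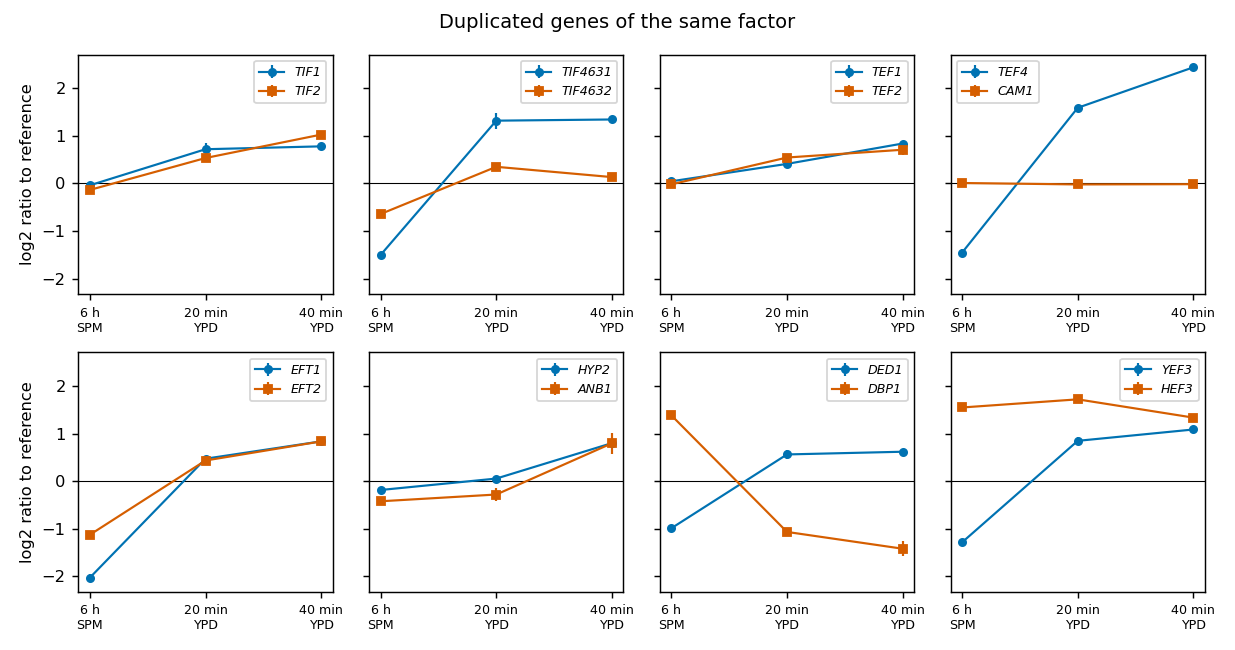
The log2 ratio to the reference (vertical axis) on the 3 arrays for 8 pairs of duplicated genes, with bars for the SD of 2 spots. *TEF4* (from -1.45 to 2.44) parts from *CAM1*, which stays near 0 with this normalization (changes of -0.69 and -0.93 with loess), *DED1* and *DBP1* cross, and *EFT1* and *EFT2* meet at 0.84.

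Most of the difference from SPM was already in place at 20 minutes. Between 20 and 40 minutes, 32 of 38 members differed by less than 1.5-fold. Of the others, 4 (10.5%) were higher at 40 minutes, against 7.88% of all genes, and 2 (5.26%) were lower, against 12.2%. These counts are too small to set the members apart from all genes. *ANB1* was 2.11-fold higher at 40 than at 20 minutes, *TEF4* 1.81-fold and *HYP2* 1.68-fold. The fourth was *SUI3* at 1.65-fold, whose difference of 0.72 was smaller than its spot SD of 1.10. *TIF5* was 1.69-fold lower at 40 than at 20 minutes and *GCD11* was 1.52-fold lower.

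**Figure D3:**
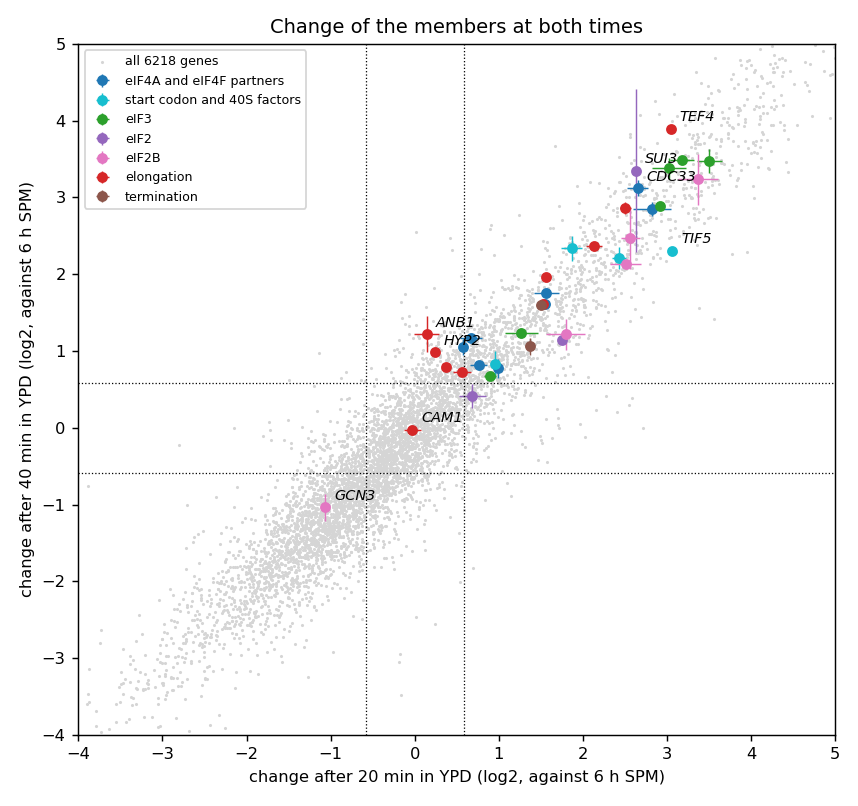
Change (log2, against 6 hours in SPM) at 20 minutes (horizontal axis) and 40 minutes (vertical axis) for the 38 members, colored by role with the SD of 2 spots, over all 6218 genes in gray; dotted lines mark 1.5-fold. Both axes subtract the same SPM array. Toward higher values, 30 members lie past the limit on both axes, *GCN3* lies past it toward lower values, and *TIF5* lies below the other members of similar 20-minute change.

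The reference channel held the same RNA on each array and gives a check of the ratios. Its centered signal for the members differed from that of the SPM array by a median of -0.01 at 20 minutes and 0.13 at 40 minutes, and 0 and 3 members were past 1.5-fold there. These 3, all at 40 minutes, were *RPG1* at -0.81, *SUI3* at -0.76 and *GCD2* at -0.76, and the sample channel alone gave them changes of 2.31, 2.82 and 1.95. Over all members, the sample channel alone gave a median change of 1.75 and 1.96. Brightness was looked at because the spots of abundant factors approach the upper end of the scanner's range. In 17 members, a Cy5 spot exceeded 30000 intensity units on at least 1 array, and 12 and 16 of them passed the limit at 20 and 40 minutes, with a median change of 1.57 and 1.75. In the 21 dimmer members, 19 passed it at each time, with a median of 1.55 and 1.59. The YPD arrays counted too, so a member could become bright by rising. Bright members numbered 5 in SPM, 15 on the 20-minute array and 11 on the 40-minute array. Comparing these classes therefore cannot show whether brightness limited the changes. Those bright in SPM were *TEF1*, *TEF2*, *TIF2*, *PAB1* and *CAM1*. Their 20-minute changes ran from -0.03 (*CAM1*) to 0.67 (*TIF2*), their 40-minute changes from -0.02 to 1.16 (same genes). The part of brightness in the smaller changes of *TEF1*, *TEF2*, *TIF2* and *PAB1*, which were among the bright members, was not tested.

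**Figure D4:**
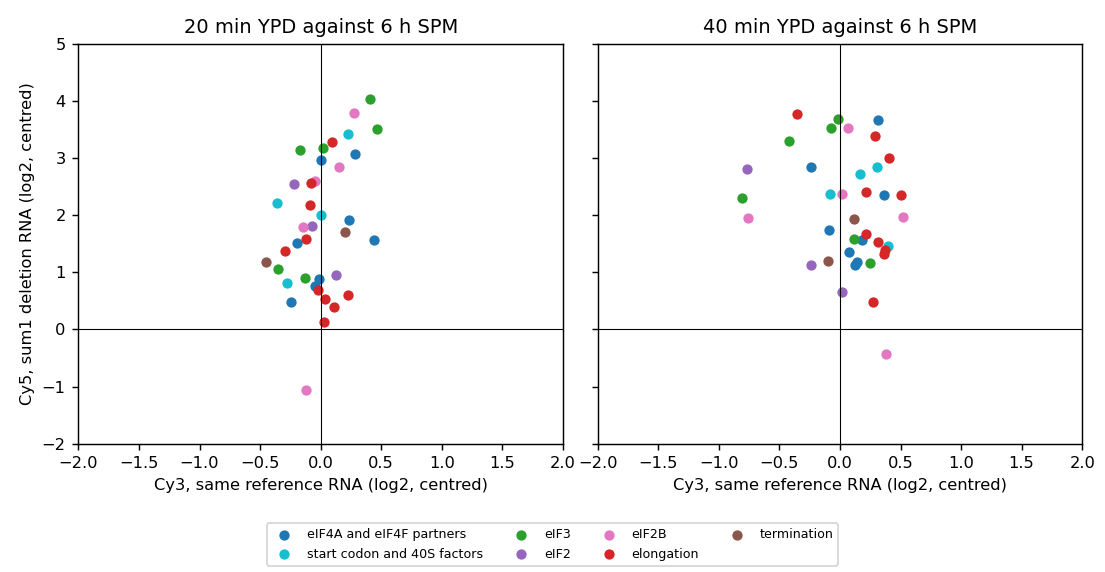
The change of each member (log2, against 6 hours in SPM) in the reference channel Cy3 (horizontal axis) and in the sample channel Cy5 (vertical axis), each centered on its array, at 20 minutes (left) and 40 minutes (right). The points spread along the sample axis, with medians of 1.75 and 1.96, and narrowly along the reference axis, from -0.45 to 0.46 and from -0.81 to 0.52.

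Other genes of the same process were set beside the members, and the counts are to be read against the 26.2% of all genes that were higher and 38.9% that were lower at 20 minutes, and the 26.9% and 42.1% at 40 minutes. Ribosomal protein genes of the cytosol changed more, their medians being 3.87 at 20 minutes and 4.49 at 40 minutes, and 127 and 128 of 133 were higher by the limit. They were picked by symbols of RPL, RPS or RPP and a digit, a rule that can take in a gene of another kind. Of 8 genes that modify translation factors, 7 were higher at each time and none was lower. Among them, *LIA1* and *DYS1* make hypusine, the modified lysine of eIF5A, and *DPH2* acts in making diphthamide, the modified histidine of eEF2. *LIA1* changed by 4.26 and 4.64, *DPH2* by 2.71 and 3.02 and *DYS1* by 2.54 and 2.42. *TRM112*, which activates the methyltransferase of eRF1, changed by 3.57 and 3.23. *MTQ2*, that methyltransferase itself, changed by -0.50 and -0.14.

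Of 6 genes of the control of eIF2 by the kinase Gcn2, 4 were higher at 20 minutes, 5 at 40 minutes and none was lower. One of those higher at both times, *GCN1* (0.62 and 1.26), had both Cy5 spots under the recovered floor in SPM. *GIR2* changed by 2.14 and 2.56 and *GCN20* by 2.00 and 1.68, whereas *GCN2*, the kinase gene, changed by -0.16 and -0.12. In a list of 10 repressors and activators that bind mRNA or its cap complex, 4 were higher and 5 lower at 20 minutes, and 3 and 5 at 40 minutes, which is near the shares of all genes. *CAF20*, whose product competes with eIF4G for eIF4E, changed by 3.10 and 3.61, and *EAP1*, whose product does so too, changed by -0.90 at both times. *SRO9*, an RNA-binding protein gene, changed by 3.93 and 3.73, and *SBP1*, which represses translation through eIF4G, by -1.39 and -2.14.

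A further 15 measured genes were recycling factors, other factors and paralogs, of which 10 were higher and 3 lower at each time. *STM1*, for a ribosome-binding protein, changed by 3.52 and 4.09, and *ARB1*, an ATPase of ribosome biogenesis, by 2.91 and 3.27. *RLI1*, the ATPase that splits ribosomes after termination, changed by 3.23 and 3.13. The genes that were lower were *DBP1*, *TMA64* (-1.37 and -2.45) and *SKI7* (-0.95 at both times). Of the 7 factors of mitochondrial translation, none was higher, 5 were lower at 20 minutes and 6 at 40 minutes, where 38.9% and 42.1% of all genes were lower. Their median change was -0.83 and -0.77, beside -0.25 and -0.32 for all genes. Of these factors, *RRF1* and *GUF1* each had a Cy5 spot under the recovered floor at 40 minutes. *MEF2*, for a mitochondrial elongation factor, changed by -2.64 and -2.15.

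**Figure D5:**
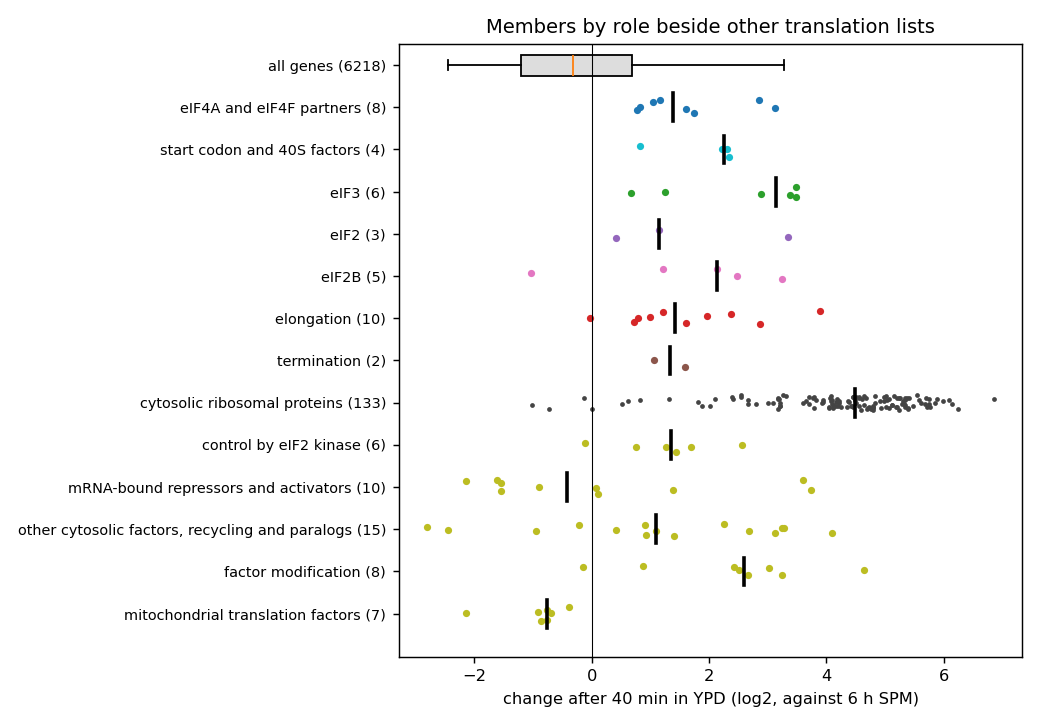
Change after 40 minutes in YPD (log2, against 6 hours in SPM) for the members by role and for the other lists, 1 point per gene with the list's median as a black bar and the number of genes in parentheses; the box for all genes shows its quartiles and its 5th and 95th percentiles. The eIF3 median is 3.13, that of ribosomal proteins is 4.49 and that of mitochondrial factors is -0.77.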

How the data were processed

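Per the labels, total RNA was reverse-transcribed, coupled to dyes and hybridized to arrays printed with 2 adjacent spots per gene. The deposited scanner files hold an intensity and a local background for each spot and color, which the authors read from the scans with QuantArray 3. The channel labels, the scanner headers and the study's own description of its arrays give Δ*sum1* in Cy5 and the reference in Cy3, and these set the direction of every ratio. The labeling protocol in the labels gives the opposite assignment. In the direction used, *SUM1* was below the reference on every array and 11 of 12 sporulation markers were above it by 1.5-fold at 6 hours; with the dyes exchanged, every sign would turn. A deposited table holds the authors' log2 ratios after background subtraction, a floor, median centering and averaging, used as an alternative and to recover the floors (656, 397 and 268 in Cy5; 690, 574 and 455 in Cy3). The recovered Cy5 floors rest on 4, 21 and 22 genes, and they differ from the buffer-spot mean that the study describes. After a constant offset, 97.9% to 98.4% of genes were within 0.001 of the deposited table.

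Here the background was subtracted, the floor set, log2(Cy5/Cy3) centered on the array median and spots averaged, with no spot omitted (Python 3.11.15, pandas 2.3.3). Median Cy5 signal was 4280, 2748 and 1616 intensity units, and the number of arrays limits precision. Alternatives used limma 3.58.1. The scripts were tested on simulated data. *HCR1* was named through its open reading frame in RefSeq R64; 5663 of 6218 genes matched that annotation. Members and lists were chosen with earlier results of these data known. All members are named, and up to 3 genes of each other list by their 40-minute change, plus *GCN1*, *GCN2*, *EAP1*, *DYS1*, *MTQ2*, *HEF3*, *RLI1*, *DBP1*, *TMA64*, *SKI7*, *RRF1* and *GUF1*, which were chosen after their values were seen.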

Additional observations from a re-analysis of the deposited data

How the results depend on the processing

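The processing was varied in 14 ways for values. Of 954 changes of single genes, 728 moved by less than the pooled spot SD of a change (0.23 at 20 minutes and 0.24 at 40 minutes), 214 moved further, and in 12 a change past the limit turned sign. A further 23 sign turns were of changes within the limit. Of 32 calls of members at 20 minutes, 26 held under every alternative that gave the gene a value, and of 36 at 40 minutes, 20 did. Omitting dim genes gave no value for *GCN3*, and omitting intensities above 30000 gave values for 22 members only. The cause of these shifts was not tested, and the shift with the buffer-spot floor is described below. With loess normalization, the median change was 0.96 and 0.93, the median ratio 0.60 at 20 minutes and 0.69 at 40 minutes, and 2 and 3 members were lower by the limit. Background correction by normexp with loess gave 1.02 and 0.95, 0.63 and 0.69, and 2 and 3 lower. The changes past the limit that turned sign, loess first and normexp with loess second, were those of *HYP2* at 40 minutes (-0.097 and -0.093), *PAB1* at 40 minutes (-0.053 and -0.053), *TEF1* at 40 minutes (-0.56 and -0.56), *TEF2* at 40 minutes (-0.59 and -0.60), and *TIF2* at 20 minutes (-0.050 and -0.051) and 40 minutes (-0.041 and -0.040). Within the limit, loess turned the 20-minute changes of *ANB1* (-0.47), *HYP2* (-0.45), *PAB1* (-0.10), *TEF1* (-0.38) and *TEF2* (-0.19), and the buffer-spot floor turned that of *SUI2* at 40 minutes (-0.26). The other sign turns were of *CAM1*, whose change was near 0, and of *ANB1*, *HYP2*, *PAB1*, *TEF1* and *TEF2* at 20 minutes under other alternatives. With the mean of the buffer spots as floor, the median change was 0.99 and 0.94, the median ratio -0.20 at 6 hours, 0.65 at 20 minutes and 0.61 at 40 minutes, 21 members were higher at 40 minutes, and 2 were lower at each time. This floor moved the median change of all genes by -0.25 and -0.17. For a spot above this floor in both colors, only the centering on the array median differed. Members with all spots above it therefore moved by a common amount at each time. At 20 minutes, for example, *CDC33* went from 2.65 to 2.08 and *CAM1* from -0.03 to -0.60. The Cy5 channel alone moved the median change of all genes by 0.12 and 0.27. With Cy5 alone, the median change of the members at 40 minutes was 1.96 and 0 were lower. Omitting intensities above 30000 left 22 members with a median change of 1.82 at 20 minutes, median ratios of 1.49 and 1.38, and 20 higher at each time. Counting identical copies once gave median ratios of 1.27 and 1.25. Omitting dim genes removed *GCN3*, so that 0 members were lower at each time. No paired analysis was possible because each time point has 1 array, and no array could be left out for the same reason. *GCN3* was dim, and the brightest members came near the upper end of the scanner's range. The part of intensity in their changes was not tested.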
